A study of Arabidopsis thaliana with 22 samples.

Results

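The question examined was whether the difference between the last 11 and the first 11 columns of a table of RNA read counts from Arabidopsis thaliana seedlings was the same in every genotype. The members were 16 of the 22 columns, which form 4 complete genotype blocks of 4 columns, with 2 columns from the last set and 2 from the first set in each. Across 17983 loci tested, an F test asked for each locus whether the set difference was equal in the 4 blocks, and 6671 loci (37.1%) were called at an adjusted p under 0.05 (edgeR's quasi-likelihood test, Benjamini-Hochberg adjustment over all loci). The loci were selected on that F test, and the columns were chosen by the counts of 5 genotype loci, so the p-values and the block differences it rests on are given as a description of the selection.

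The labels describe whole seedlings grown for 14 days on soil and harvested 3 h after ultraviolet light at 312 nm (4.35 W per square metre), or after mock handling. They name 6 accessions, which are inbred natural strains. The 8 last-set columns were labelled Lip-0 mock 2, Lip-0 UV 1 and 2, Mh-0 mock 1, Mh-0 UV 2, T1080 mock 1 and T1080 UV 1 and 2. The 8 first-set columns were labelled Ba-1 mock 2, Ba-1 UV 2, C24 mock 1 and 2, C24 UV 2, Got-7 mock 1 and 2 and Got-7 UV 1. All were unmodified natural strains, and nothing in the labels says whether a library held 1 plant or a pool. The p-values thus reflect how far these libraries scatter, which may be technical scatter.

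The labels went against the data, so neither treatment nor accession is taken from them below. By label, 5 of the 8 last-set columns were UV and 3 mock, and 3 of the 8 first-set columns were UV and 5 mock, yet each column lay closest to the partner of its own block and set whatever their labels (16 of 16 columns). Within these pairs, Pearson's r across loci was 0.9881 to 0.9926 on log2 CPM, and to any column of another block or set it was at most 0.9611. No labelled accession occurred in both sets (0 of 6), so the set difference, the labelled accession and any batch that follows the column order cannot be told apart. The sets are defined by column number and are called only first and last set here.

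Plants under ultraviolet or pathogen attack are known to raise salicylic acid, jasmonate and ethylene signalling, indolic defence compounds and detoxifying enzymes, while genes of light harvesting, growth and cell division are turned down. Salicylic acid and jasmonate act through separate transcriptional branches: CBP60G switches on and ICS1 carries out salicylic acid synthesis, and JAZ proteins repress jasmonate responses and are themselves jasmonate-induced. Natural strains differ in the standing level of these pathways and in glucosinolates, the sulphur-rich defence compounds of the cabbage family, whose side chains depend on MAM1, AOP3 and GSL-OH.

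The blocks were formed from the levels of 5 loci, so those levels are a description only. CPM below means read counts scaled to a common library size, with sizes scaled by TMM factors, and it compares a locus between columns, not loci with each other. AOP3, a glucosinolate side-chain enzyme, had 50.4 and 61.6 CPM in the last set and 389 and 414 CPM in the first set of the AOP3-expressing block, and at most 0.232 CPM in the other 12 columns. GSL-OH, which hydroxylates a butenyl side chain, had 0.851 and 0.998 CPM in the last set and 0.573 and 1.08 CPM in the first set of the GSL-OH-low block. It had 195 and 203 CPM in the last set and 292 and 264 CPM in the first set of the FLC-low AOP3-off block. FLC, a repressor of flowering, had 0.834 and 1.86 CPM in the last set and 1.93 and 0.158 CPM in the first set of that block, and 66.1 to 92.2 CPM in the last set and 77.4 to 102 CPM in the first set of the GSL-OH-low and high-MAM1 blocks. The AOP3-expressing block was also low in FLC, with 4.71 and 3.37 CPM in the last set and 6.94 and 4.13 CPM in the first. ESP, which steers glucosinolate breakdown, was at 831 CPM or more in all 16 columns. MAM1, a chain-elongation enzyme, had 181 and 229 CPM in the last set and 577 and 551 CPM in the first set of the high-MAM1 block, the highest pair of each set. AOP3 and FLC kept their block order in both sets, while MAM1 levels overlapped between sets across blocks.

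Total counts ran from 7963857 to 13709473 in the last set and from 4893285 to 11622775 in the first set, so a count of 0 allows up to 0.219 to 0.613 CPM per column. Such limits and intervals speak of counting error alone. Partner columns differed beyond sampling noise in every pair (chi-square of 1.69 to 3.87 per locus), and none was a repeat of another. The spread between partners gave a common coefficient of variation of 5.66%. The first principal component held 63.67% of the variance and separated the sets. Green tissue was present throughout, with 33 nuclear photosynthesis loci summing to 57770 to 100600 CPM in the last set and 110600 to 136900 CPM in the first. Markers of roots summed to 69.1 to 241.2 CPM in the last set and 111.5 to 197 CPM in the first, with 3 of 12 tested. Markers of flowers summed to 0.929 to 2.32 CPM in the last set and 1.09 to 5.95 CPM in the first, with 2 of 9 tested. Their part in the differences was not tested, and in such whole-seedling libraries fewer cells of a type and less RNA per cell cannot be told apart.

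The set difference was large and mostly shared. Its mean over the 4 blocks was higher in the last set at 7015 loci (39%) and lower at 6800 (37.8%). Of the 6671 interaction loci, 1865 were called higher in the last set in all 4 blocks and 1832 lower in all 4, so 28% and 27.5% of them differed between blocks in size while keeping 1 direction. Over all loci tested, 3686 (20.5%) were higher in all 4 blocks and 3187 (17.7%) lower. Another 2551 (38.2%) were called in 1 direction in 1 to 3 blocks, 418 (6.27%, against 2.33% of all loci tested) were called in opposite directions in at least a pair of blocks, and 5 in no block. Opposite calls are themselves a difference between blocks, and 418 of the 419 loci with them were interaction loci. That contrast therefore restates the selection. Opposite calls with a difference of at least 1 log2 unit on both sides numbered 52. The largest and the smallest block difference lay at least 1 log2 unit apart at 2431 of the 6671, with a median range of 0.80 log2 units, against 0.59 over all loci tested. The F test selects on this range, so its contrast restates the selection too.

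The blocks lay farther apart in the last set than in the first. At the interaction loci the median SD between the 4 block means was 0.37 log2 units in the last set and 0.23 in the first, and over all loci tested 0.31 in the last set and 0.23 in the first. The spread was larger in the last set at 4731 of the 6671 (70.9%), and at 64.4% of all loci tested. How often a locus was called rose with its level, at 15.4%, 32.1%, 44.0% and 56.9% in 4 nearly equal groups of loci ordered from low to high mean log2 CPM. Calls ran from 36.4% of the loci on chromosome 3 to 39.4% on chromosome 4, and 0 of 71 chloroplast and 0 of 12 mitochondrial loci were called.

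The set difference was largest in the high-MAM1 block by median size. The high-MAM1 block had 6208 loci higher (34.5%) and 6404 lower (35.6%) in the last set, a median absolute difference of 0.67 log2 units, and 34.2% of its loci at 1 log2 unit or more. The GSL-OH-low block had 5507 higher (30.6%) and 5003 lower (27.8%), a median of 0.48, and an SD of the fitted differences over loci of 1.74 log2 units, against 1.68 in the high-MAM1 block. The FLC-low AOP3-off block had 5347 higher (29.7%) and 4583 lower (25.5%) with a median of 0.43. The AOP3-expressing block had 5297 higher (29.5%) and 4918 lower (27.3%) with a median of 0.46 and the smallest SD (1.45). The order of the GSL-OH-low and high-MAM1 blocks in SD depended on the measure. Log2 CPM of single pairs of columns, which damp low counts and are not the fitted differences, put the high-MAM1 block higher. The SD was then 1.415 to 1.435 in the GSL-OH-low block and 1.443 to 1.469 in the high-MAM1 block. By fitted differences 13.2% of loci reached 2 log2 units in the high-MAM1 block and 11.7% in the GSL-OH-low block, whereas 3.84% and 4.58% of loci in these blocks reached 4. The medians from single pairs of columns ran from 0.642 to 0.663 in the high-MAM1 block and from 0.475 to 0.486 in the GSL-OH-low block. They ran from 0.421 to 0.456 in the FLC-low AOP3-off block and from 0.455 to 0.472 in the AOP3-expressing block. The high-MAM1 block thus stood farthest outside the spread of columns, and only the FLC-low AOP3-off and AOP3-expressing ranges overlapped.

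**Figure D1:**
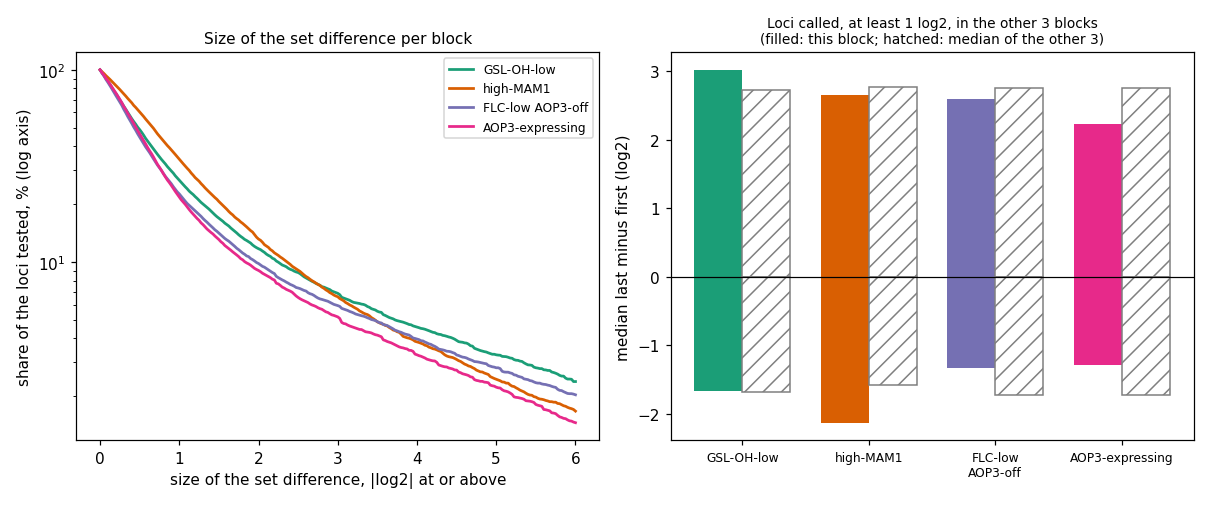
Left: share of the 17983 loci tested (percent, log axis) whose last-minus-first difference reaches the absolute log2 size on the x axis, for each block. Right: median last-minus-first log2 difference of the loci called in 1 direction at 1 log2 unit or more in the other 3 blocks (filled bar, the named block; hatched bar, the median of the other 3; bars upward for loci higher in the last set and downward for lower). The high-MAM1 curve is the highest at 1 and 2 log2 units and the GSL-OH-low curve at 3 and above, and the FLC-low AOP3-off and AOP3-expressing bars are shorter than their hatched partners in both directions.

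Loci picked without a block give a measure of its size that its own data did not choose, while the values of the other 3 had to reach 1 log2 unit and are raised by that choice, so the comparison is a description. Of the 1802 loci raised by at least 1 log2 unit in the other 3 blocks, the GSL-OH-low block had a median of 3.02 log2 units against 2.72 in the others. The same medians were 2.65 against 2.76 in the high-MAM1 block (1846 loci), 2.59 against 2.75 in the FLC-low AOP3-off block (1866 loci) and 2.22 against 2.75 in the AOP3-expressing block (2027 loci). For lowered loci they were -1.67 against -1.69 in the GSL-OH-low block, -2.13 against -1.58 in the high-MAM1 block, -1.34 against -1.73 in the FLC-low AOP3-off block and -1.29 against -1.73 in the AOP3-expressing block. At lowered loci the high-MAM1 block lay beyond the median of the others in spite of that choice. Among the 1832 interaction loci lower in all blocks, the high-MAM1 block had the largest fall at 1568 (85.6%). Among the 1865 higher in all blocks it had the largest rise at 947 (50.8%), the GSL-OH-low block at 599 (32.1%), and the AOP3-expressing block had the smallest rise at 766 (41.1%).

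**Figure D2:**
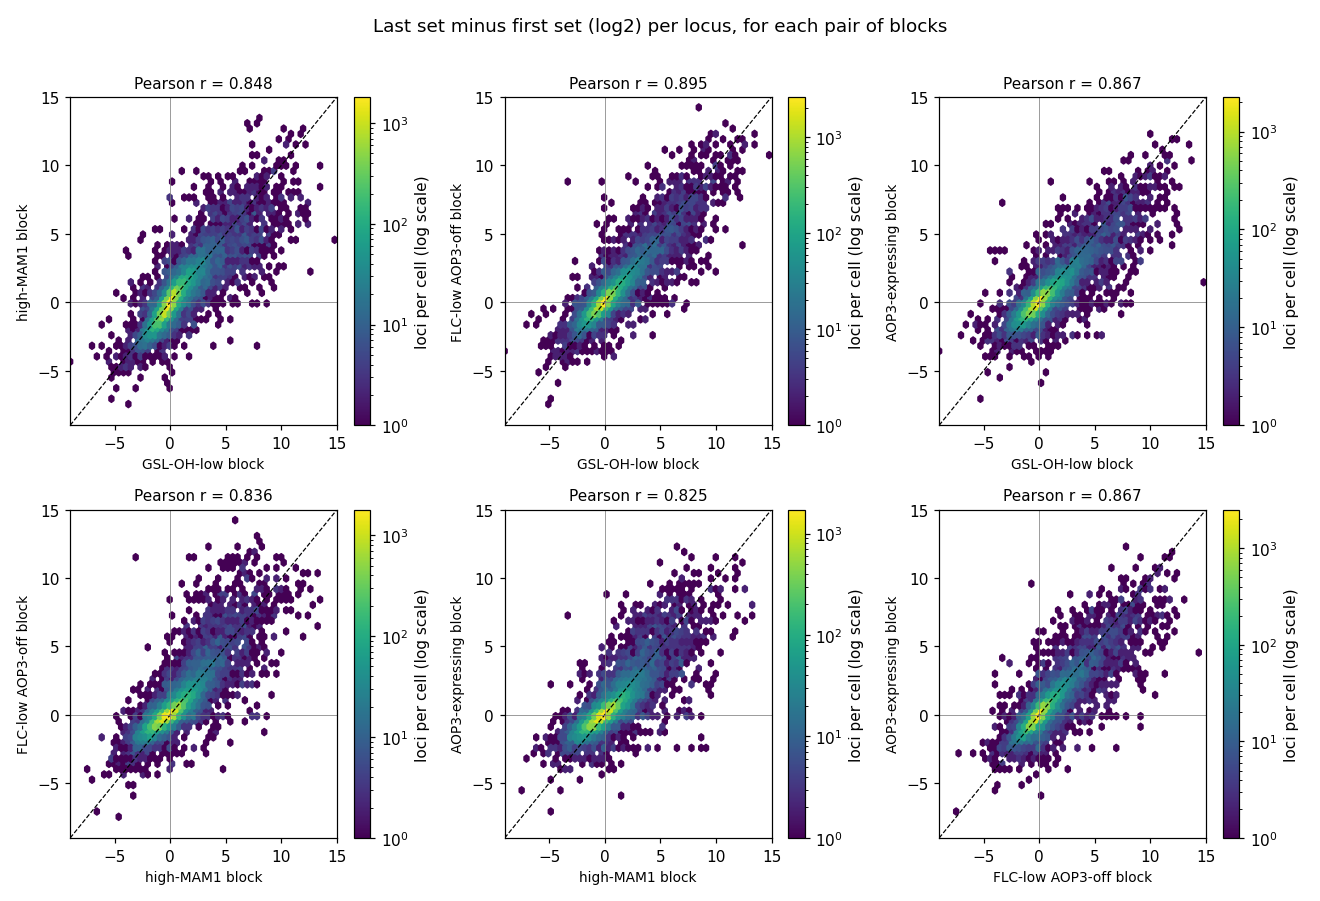
Last set minus first set (log2) for the 17983 loci tested, with 1 panel per pair of blocks and the blocks on the axes. Colour gives the number of loci per hexagon on a log scale, the dashed line is equality, and Pearson's r stands above each panel, from 0.825 to 0.895.

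Block differences ran in parallel across loci. Pearson's r across the 17983 loci was 0.895 between the GSL-OH-low and FLC-low AOP3-off blocks, and 0.867 between the AOP3-expressing block and each of these. The high-MAM1 block had r of 0.848 with the GSL-OH-low, 0.836 with the FLC-low AOP3-off and 0.825 with the AOP3-expressing block, the 3 lowest values. Blocks share no column, the loci of a library are not independent replicates, and these values are descriptions. Taking single pairs of columns moved r by at most 0.015 (SD). Among loci called in both blocks of a pair, opposite directions made up 0.691% (57 loci, GSL-OH-low with FLC-low AOP3-off) to 2.08% (192 loci, GSL-OH-low with high-MAM1).

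The departure of a block from the mean of the other 3 was called most often in the high-MAM1 block, with 2045 loci higher (11.4%) and 3750 lower (20.9%). The GSL-OH-low block had 1436 higher (7.99%) and 820 lower (4.56%), the FLC-low AOP3-off block 1094 higher (6.08%) and 578 lower (3.21%), and the AOP3-expressing block 1094 higher (6.08%) and 1268 lower (7.05%). These splits depended on the scaling of libraries. The percentage of departures that were higher was 63.7, 59.1 and 46.2 in the GSL-OH-low block under TMM, median-of-ratios and total-count scaling, 35.3, 49.3 and 18.9 in the high-MAM1 block, 65.4, 55.3 and 75.5 in the FLC-low AOP3-off block and 46.3, 36.4 and 80.0 in the AOP3-expressing block. Total-count scaling shifted the median difference of all loci by 0.13 log2 units in the AOP3-expressing block and by at most 0.08 in the others. At interaction loci with a departure of at least 1 log2 unit, the high-MAM1 block had more lower than higher under all 3 scalings (737 against 361 under TMM), and the GSL-OH-low block more higher than lower (290 against 107).

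In the salicylic acid pathway the high-MAM1 block had the smallest set difference and the highest first-set levels. Of 25 tested members, 16 (64%) were called by the F test. The list rose in the last set in every block, with 22, 21, 21 and 22 members called higher and 0 lower in the GSL-OH-low, high-MAM1, FLC-low AOP3-off and AOP3-expressing blocks, and median differences of 3.02, 1.59, 2.73 and 3.00 log2 units (all loci tested, 0.01, -0.04, 0.03 and 0.02). In the first set, 23 of the 25 had both high-MAM1 columns above all 6 columns of the other blocks, against 19.4% of all loci tested. In the last set 20 of the 25 did, against 25.2% of all loci.

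CBP60G, a transcription factor that switches on salicylic acid synthesis, had 200 and 207 CPM in the last set and 28.9 and 27.9 CPM in the first set of the high-MAM1 block. It had 122 and 115 CPM in the last set and 1.58 and 2.43 CPM in the first set of the GSL-OH-low block, 49.7 and 52.2 against 1.38 and 1.74 CPM in the FLC-low AOP3-off block, and 48.5 and 48.4 against 0.901 and 0.869 CPM in the AOP3-expressing block. No last-set column overlapped a first-set column, and the high-MAM1 pair was the highest of both sets. The difference was 2.84 ± 0.08 log2 in the high-MAM1 block. It was 5.87 ± 0.13, 5.03 ± 0.16 and 5.74 ± 0.17 in the GSL-OH-low, FLC-low AOP3-off and AOP3-expressing blocks (F test adjusted p = 1.8e-13, edgeR). Values after ± are the absolute difference divided by the square root of its own F statistic. They approximate a standard error and can fall below counting error where reads are few.

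PNP-A, a small secreted peptide of the natriuretic type, had 236 and 272 CPM in the last set and 114 and 120 CPM in the first set of the high-MAM1 block. It had 164 and 167 against 0.143 and 1.08 CPM in the GSL-OH-low block and 52.7 and 57.5 against 0.688 and 0.792 CPM in the FLC-low AOP3-off block. In the AOP3-expressing block it had 0.205 and 0.21 CPM in the last set and 0 and 0.217 CPM in the first, close to the detection limit. The locus was thus high in both sets of the high-MAM1 block, high in the last set of the next pair of blocks, and at 2 and 2 reads in the last set and 0 and 1 reads in the first set of the AOP3-expressing block. PBS3, an enzyme of salicylic acid synthesis, had 377 and 447 CPM in the last set and 2.87 and 2.56 CPM in the first set of the GSL-OH-low block, the largest difference of the 4 (7.24 ± 0.12 log2), and 72.6 and 69.1 against 2.62 and 3.48 CPM in the FLC-low AOP3-off block (4.55 ± 0.14). The high-MAM1 block had 789 and 801 against 20.8 and 22.1 CPM, and no column of the last set overlapped the first set in any block. PR1, a late salicylic acid marker chosen here after its values were seen, was not called by the F test. It had 709 and 565 CPM in the last set and 1010 and 912 CPM in the first set of the high-MAM1 block, and the other 12 columns were all lower than these 4.

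**Figure D3:**
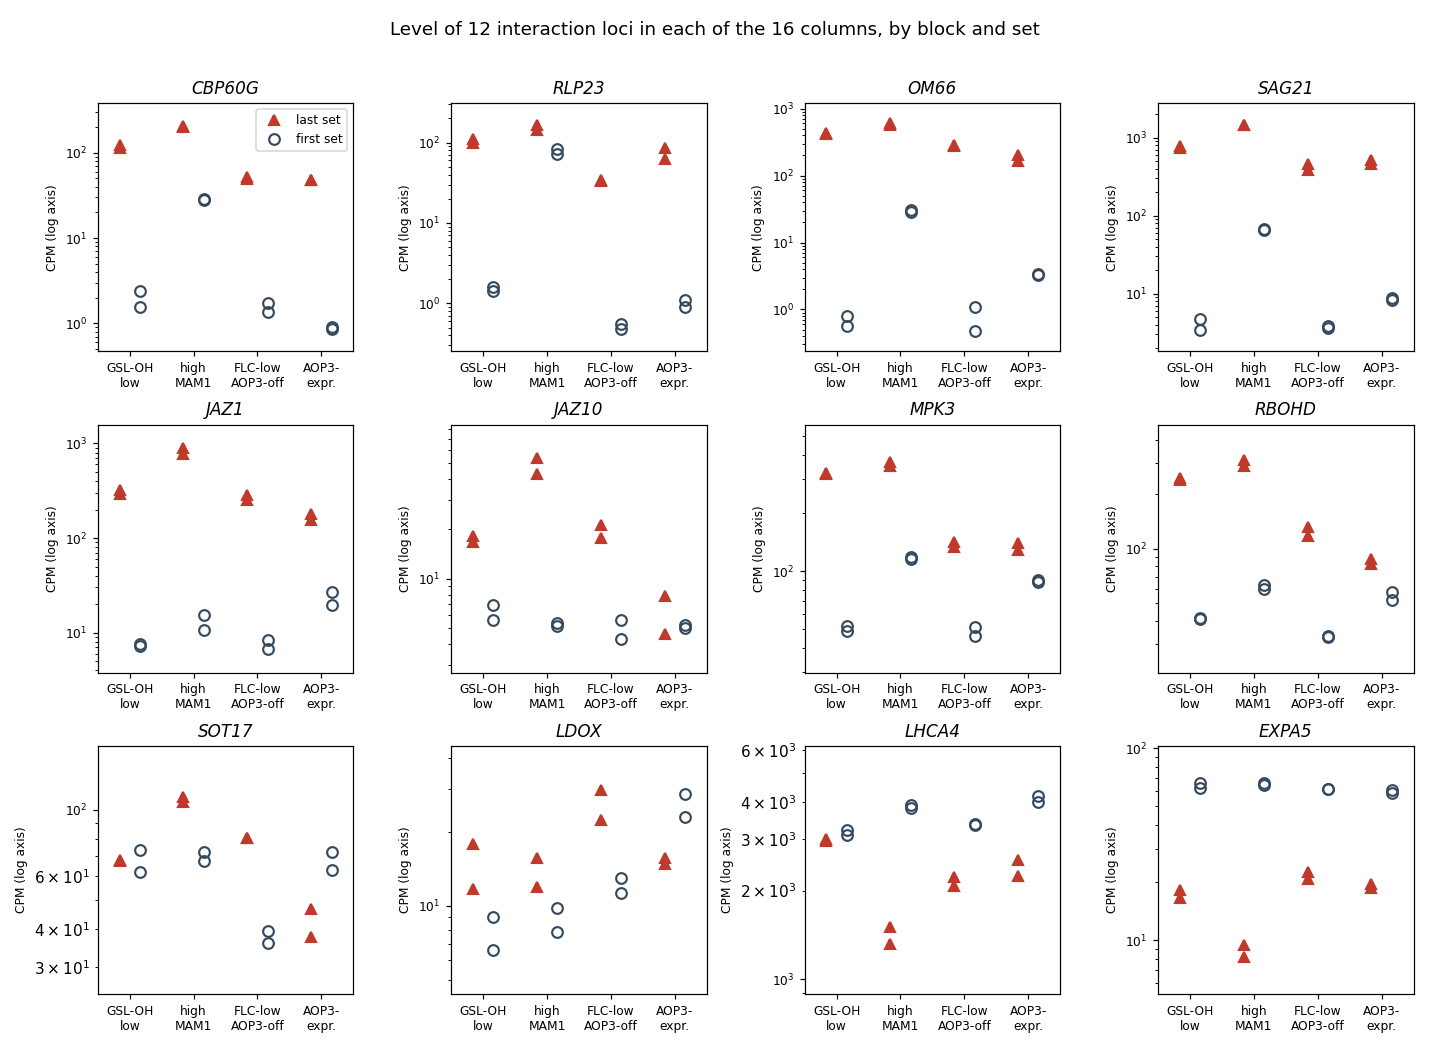
CPM (log axis) of 12 interaction loci in each of the 16 columns, by block; filled triangles, left, are last-set columns and open circles, right, first-set columns, with 2 of each per block. CBP60G, RLP23, OM66 and SAG21 stand far higher in the high-MAM1 first-set columns than in the other first-set columns, JAZ10 separates the sets in every block but the AOP3-expressing one, and LHCA4 is lowest in the last-set columns of the high-MAM1 block.

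Pattern-triggered immunity, the recognition of microbial molecules at the cell surface, rose in the last set of every block. Of 26 members, 17 (65.4%) were called by the F test, and 25, 24, 22 and 23 were called higher in the last set in the GSL-OH-low, high-MAM1, FLC-low AOP3-off and AOP3-expressing blocks with 0 lower. The median differences were 2.72, 2.12, 2.29 and 2.00 log2 units (1.86 in the AOP3-expressing block with loci at 0 set to their bound). In the first set 17 of 26 had both high-MAM1 columns above all other blocks, against 19.4% of all loci tested. In the last set 20 of 26 did, against 25.2% of all loci.

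RLP23, a receptor for a microbial peptide, had 142 and 165 CPM in the last set and 83.2 and 73.1 CPM in the first set of the high-MAM1 block. It had 112 and 99.6 against 1.43 and 1.62 CPM in the GSL-OH-low block, 33.8 and 32.9 against 0.551 and 0.475 CPM in the FLC-low AOP3-off block, and 62.9 and 86.7 against 0.901 and 1.09 CPM in the AOP3-expressing block. The high-MAM1 first-set columns lay above the last-set columns of the FLC-low AOP3-off block, so the sets overlapped across blocks but not within any. MPK3, a mitogen-activated kinase of immune signalling, had 321 and 317 CPM in the last set and 51.9 and 48.9 CPM in the first set of the GSL-OH-low block (2.66 ± 0.07 log2), and 129 and 140 against 88 and 90.2 CPM in the AOP3-expressing block (0.60 ± 0.07). RBOHD, the oxidase of the defence oxidative burst, differed by 2.56 ± 0.08 log2 in the GSL-OH-low block and 0.65 ± 0.08 in the AOP3-expressing block. Both were raised in all 4 blocks, least in the AOP3-expressing block, whose first-set columns were above those of the GSL-OH-low and FLC-low AOP3-off blocks.

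Of the NLR immune receptors, the intracellular sensors of pathogen effectors, 14 of 22 (63.6%) were called by the F test. They were called higher in the last set at 16, 17, 15 and 14 members and lower at 1, 1, 3 and 1, with median differences of 1.34, 0.92, 0.63 and 0.84 log2 units (1.39, 0.97, 0.85 and 0.84 without members at the detection limit in both sets). In the first set 16 of 22 stood highest in both high-MAM1 columns, against 19.4% of all loci tested. ADR1-L2, a helper NLR, had 146 and 147 CPM in the last set and 21.9 and 20.6 CPM in the first set of the GSL-OH-low block, and 132 and 145 against 63.9 and 56.3 CPM in the high-MAM1 block. SNC1 had 465 and 463 CPM in the last set and 245 and 265 CPM in the first set of the high-MAM1 block, and 66.9 and 63.7 against 41 and 42.2 CPM in the AOP3-expressing block. Its neighbours RPP4 and RPP5 are near-identical in sequence, so reads may be split among them and these values are uncertain.

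Mitochondrial stress and senescence genes rose in the last set of all blocks. All 9 mitochondrial stress members were called higher in every block, with medians of 6.02, 5.19, 5.48 and 5.43 log2 units, and 3 (33.3%) were called by the F test, near the share over all loci. OM66, an outer-membrane ATPase induced by stress, had 576 and 602 CPM in the last set and 30.3 and 28.2 CPM in the first set of the high-MAM1 block, and 429 and 417 against 0.573 and 0.81 CPM in the GSL-OH-low block. The set differences were 4.34 ± 0.09 and 9.22 ± 0.16 log2, and the GSL-OH-low value rests on 10 first-set reads. AOX1A, the alternative oxidase, differed by 4.65 ± 0.10 to 5.19 ± 0.11 log2 across the 4 blocks and was close to the threshold (F test adjusted p = 0.0405, edgeR; 0.0728 with DESeq2, 0.123 with limma voom and 0.0547 with the replicate block). Of 12 senescence and stress NAC loci, 7 (58.3%) were called by the F test and 10 or 11 were higher in each block. SAG21, a late embryogenesis-type protein, had 1440 and 1460 CPM in the last set and 66.4 and 65.3 CPM in the first set of the high-MAM1 block, and 731 and 791 against 3.44 and 4.72 CPM in the GSL-OH-low block.

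The jasmonate list had one of the higher shares of interaction loci, 19 of 22 (86.4%), and here the AOP3-expressing block stood apart. In that block 7 members were called higher and 8 lower in the last set, with a median of -0.06 log2 units (0.07 under total-count scaling). In the GSL-OH-low, high-MAM1 and FLC-low AOP3-off blocks 12, 15 and 16 were higher and 4, 3 and 3 lower, with medians of 1.23, 1.91 and 2.1. The departure of the AOP3-expressing block was called lower at 16 of the 22 and higher at 1, against 7.05% and 6.08% of all loci tested.

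JAZ1, a repressor that is itself an early jasmonate-induced gene, had 181 and 154 CPM in the last set and 19.4 and 27.2 CPM in the first set of the AOP3-expressing block. It had 293 and 325 against 7.59 and 7.29 CPM in the GSL-OH-low block, 886 and 776 against 15.3 and 10.6 CPM in the high-MAM1 block, and 283 and 254 against 6.74 and 8.4 CPM in the FLC-low AOP3-off block. The AOP3-expressing pair was the lowest in the last set and the highest in the first. JAZ10 had 7.79 and 4.63 CPM in the last set and 5.05 and 5.22 CPM in the first set of the AOP3-expressing block, which overlapped (0.29 ± 0.25 log2, not called), and 53.8 and 42.9 against 5.15 and 5.4 CPM in the high-MAM1 block (3.20 ± 0.17). JAZ2 was called higher in the high-MAM1 block (1.42 ± 0.10) and the FLC-low AOP3-off block (1.33 ± 0.11), and differed by 0.21 ± 0.11 and 0.01 ± 0.11 in the GSL-OH-low and AOP3-expressing blocks. Among members chosen after their values were seen, MYC2, the main jasmonate transcription factor, was called higher in 3 blocks (0.92 log2 in the GSL-OH-low, 1.84 in the high-MAM1 and 1.72 in the FLC-low AOP3-off block) and lower in the AOP3-expressing block (-0.63). AOC1, an enzyme of jasmonate synthesis whose close copies AOC2 and AOC3 can share its reads, had 52.5 and 42.2 CPM in the last set and 52.7 and 76.9 CPM in the first set of that block, and 74.7 and 69 against 3.99 and 3.48 CPM in the FLC-low AOP3-off block.

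The promoters of members that moved with these pathways were read from the RefSeq TAIR10.1 genome of the Columbia strain, not from these accessions, as the 250 bases before the annotated gene start. They are printed 5′ to 3′ on the strand of the gene, because they belong to the salicylic acid, immune and jasmonate loci described above, with the motif letters found in capitals. The motifs searched on both strands were the W-box (TTGACC or TTGACT), bound by WRKY factors, the G-box (CACGTG), bound by MYC2, and the heat shock element (GAANNTTC). RLP23 (chr2:13862615-13862864, minus strand) holds the W-box at 2 places, JAZ2 (chr1:28150447-28150696, minus strand) holds the G-box once, and PNP-A (chr2:8091737-8091986, minus strand) holds the heat shock element at 2 places.
RLP23: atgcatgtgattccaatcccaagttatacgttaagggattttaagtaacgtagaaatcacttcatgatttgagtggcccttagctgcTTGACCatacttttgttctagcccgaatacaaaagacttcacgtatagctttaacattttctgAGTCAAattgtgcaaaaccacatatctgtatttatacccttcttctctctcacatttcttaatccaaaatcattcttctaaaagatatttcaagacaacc
JAZ2: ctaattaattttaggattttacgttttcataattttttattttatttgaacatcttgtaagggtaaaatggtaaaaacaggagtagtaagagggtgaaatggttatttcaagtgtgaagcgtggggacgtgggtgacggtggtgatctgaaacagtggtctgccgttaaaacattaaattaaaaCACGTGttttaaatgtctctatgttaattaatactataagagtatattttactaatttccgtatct
PNP-A: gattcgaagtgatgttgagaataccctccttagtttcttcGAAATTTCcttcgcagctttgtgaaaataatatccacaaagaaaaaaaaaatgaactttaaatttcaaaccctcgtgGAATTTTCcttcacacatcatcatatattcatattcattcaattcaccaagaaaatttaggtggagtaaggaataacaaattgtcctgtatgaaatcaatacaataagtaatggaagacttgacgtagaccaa
Of 27443 protein-coding windows of the same length, 28.4% hold the W-box, 6.5% the G-box and 9.6% the heat shock element. CBP60G holds the heat shock element once and RBOHD the W-box once, and in the windows of PBS3, JAZ10 and MPK3 none of these letters were found. A match describes the sequence only and says nothing of binding.

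Ethylene and ERF loci rose in all blocks, least by the median in the AOP3-expressing block. Of 18 ethylene and ERF loci, 13 (72.2%) were called by the F test. They were called higher at 16, 15, 14 and 15 members, with median differences of 4.30, 2.91, 3.55 and 1.41 log2 units (3.90, 2.91, 2.33 and 1.41 with loci at 0 set to their bound). ERF1A, an ethylene response factor, had 366 and 324 CPM in the last set and 2.97 and 3.36 CPM in the first set of the high-MAM1 block, and 68 and 61.9 against 5.23 and 6.3 CPM in the AOP3-expressing block. ACS6, an enzyme of ethylene synthesis, differed by 5.42 ± 0.09 log2 in the high-MAM1 block and 3.54 ± 0.10 in the FLC-low AOP3-off block, and was raised in all 4.

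Of 23 loci of camalexin, tryptophan and indolic glucosinolate synthesis, 17 (73.9%) were called by the F test, and 22 or 23 were higher in every block, with medians of 3.02, 3.65, 2.46 and 2.15 log2 units. In the last set 21 of 23 had both high-MAM1 columns above all other blocks, against 25.2% of all loci tested. In the first set 13 of 23 did, against 19.4% of all loci. WRKY33, the transcription factor that drives camalexin synthesis, had 946 and 888 CPM in the last set and 40.6 and 43 CPM in the first set of the high-MAM1 block, and 647 and 652 against 5.59 and 9.04 CPM in the GSL-OH-low block. CYP71B6, which acts on an indolic intermediate, had 433 and 412 against 98.2 and 97.4 CPM in the high-MAM1 block and at most 85.2 CPM in the last set and 50.6 CPM in the first set elsewhere. The high-MAM1 pair therefore stood above the other blocks in both sets at both genes. MYB51, a regulator of indolic glucosinolates, differed by 3.69 ± 0.09 log2 in the high-MAM1 block and 6.11 ± 0.13 in the GSL-OH-low block.

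Flavonoid and anthocyanin genes, which make the plant's ultraviolet screen, separated the FLC-low AOP3-off from the AOP3-expressing block. Of 19 members, 11 (57.9%) were called by the F test. In the FLC-low AOP3-off block 14 were called higher and 2 lower, with a median of 0.89 log2 units, and in the AOP3-expressing block 1 was higher and 7 lower, with a median of -0.48 (0 higher under median-of-ratios scaling). The GSL-OH-low block had 7 higher and 2 lower and the high-MAM1 block 5 higher and 2 lower, with medians of 0.36 and 0.08. In the last set, 16 of 19 had both FLC-low AOP3-off columns above all other blocks, against 12% of all loci tested. LDOX, an anthocyanin enzyme, had 14.8 and 15.7 CPM in the last set and 23.1 and 28.5 CPM in the first set of the AOP3-expressing block, and 22.3 and 29.7 against 11.3 and 13 CPM in the FLC-low AOP3-off block. It was called lower in the AOP3-expressing block (-0.72 ± 0.20) and higher in the other 3. DFR, the step before it, did the same in the GSL-OH-low (1.1 ± 0.36), FLC-low AOP3-off (1.68 ± 0.29) and AOP3-expressing blocks (-0.80 ± 0.24), and was not called in the high-MAM1 block (0.25 ± 0.28). TT4, the entry enzyme of the pathway, was not called by the F test.

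Genes of ultraviolet perception and DNA damage repair were called by the F test at shares near or below that of all loci. Of 14 UVR8 and photolyase loci, 5 (35.7%) were called by the F test, near the share over all loci, and of 21 SOG1 and DNA damage loci 4 (19%) were. CRY3, a cryptochrome of the photolyase family, had 108 and 97.6 CPM in the last set and 26.7 and 28.8 CPM in the first set of the high-MAM1 block, and at most 13.6 CPM in the last set and 10.7 CPM in the first set elsewhere. ELIP2, a light-stress protein of the thylakoid, had 137 and 146 CPM in the last set and 0 CPM in both first-set columns of that block, at least 759-fold higher against a limit of 3 counts over the pair. In the other 3 blocks ELIP2 had 70.6 to 155 CPM in the last set and 0 to 0.792 CPM in the first. BRCA1, a repair gene chosen here after its values were seen, was higher by 1.52 to 1.93 log2 units in every block and not called by the F test (adjusted p = 0.264, edgeR). The SOG1 list was called higher at 14, 13, 13 and 14 members in the GSL-OH-low, high-MAM1, FLC-low AOP3-off and AOP3-expressing blocks and lower at 2, 4, 3 and 3, with medians of 0.94, 0.85, 0.65 and 0.79 log2 units.

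Heat shock loci were called higher at 10, 13, 13 and 13 of 15 members with 0 lower, with medians of 2.2, 2.84, 2.74 and 3.26 log2 units (1.97, 2.84, 2.67 and 3.12 with loci at 0 set to their bound). One of the 15 (6.67%), the chaperone HSP70-1, was called by the F test, close to the threshold (adjusted p = 0.046, edgeR; 0.059 with limma voom and 0.0698 with the replicate block). Chloroplast-encoded loci were called higher at 10, 10, 10 and 9 of 12 members, with medians of 1.98, 1.63, 2.07 and 1.88, and 0 of 12 were called by the F test. A p that misses the threshold does not show that the blocks were alike at these loci.

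Endoplasmic reticulum chaperones, which fold secreted proteins, were raised in the high-MAM1 block. Of 10 members 8 (80%) were called by the F test. The departure of that block was called higher at 7 and lower at 0, against 11.4% and 20.9% of all loci tested. It had 6 members higher and 0 lower with a median of 0.42 log2 units, whereas the GSL-OH-low, FLC-low AOP3-off and AOP3-expressing blocks had 2, 2 and 3 higher and 4, 1 and 1 lower, with medians of -0.22, -0.14 and 0.15. SDF2, a protein of endoplasmic reticulum quality control, had 94.2 and 94.7 CPM in the last set and 76.4 and 76.3 CPM in the first set of the high-MAM1 block. It had 58.1 and 60.9 against 81.5 and 75.3 CPM in the GSL-OH-low block, so the sets did not overlap in either block and stood in opposite order. BZIP60, a transcription factor of the unfolded protein response, was raised in all 4 blocks, by 2.95 ± 0.11 log2 in the AOP3-expressing block and 3.80 ± 0.11 in the FLC-low AOP3-off block. Without the high-MAM1 block 1 of the 10 was called by the F test over the other 3 blocks. Calls over all loci also fell in that setting, from 6671 to 2342.

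Of 22 glutathione transferases and detoxifying enzymes, 10 (45.5%) were called by the F test. They were called higher at 19, 21, 19 and 19 members and lower at 2, 1, 0 and 1, with 1 called in opposite directions between blocks. Medians were 5.86, 5.19, 4.43 and 4.40 log2 units (4.95, 4.77, 4.80 and 3.20 with loci at 0 set to their bound). GSTU19 had 1690 and 1510 CPM in the last set and 393 and 354 CPM in the first set of the high-MAM1 block, and 597 to 959 CPM in the last set and 354 to 504 CPM in the first set of the other 3. The high-MAM1 last-set pair stood above all other columns. Members of this family are similar in sequence, so reads may be shared among them.

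Nuclear photosynthesis genes had the highest share of interaction loci of the lists, 32 of 33 (97%), and fell in the last set. They were called lower at 26, 32, 30 and 31 members in the GSL-OH-low, high-MAM1, FLC-low AOP3-off and AOP3-expressing blocks and higher at 2, 0, 0 and 0. The medians were -0.39, -1.06, -0.63 and -0.77 log2 units. The departure of the high-MAM1 block was called lower at 31, against 20.9% of all loci tested. That of the GSL-OH-low block was called higher at 30, against 7.99% of all loci. These are among the most abundant transcripts, where calls were most frequent.

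LHCA4, a light-harvesting protein of photosystem I, had 1320 and 1500 CPM in the last set and 3810 and 3910 CPM in the first set of the high-MAM1 block (-1.45 ± 0.06 log2). It had 2990 and 2940 against 3090 and 3220 CPM in the GSL-OH-low block (-0.09 ± 0.06, not called), 2220 and 2070 against 3340 and 3360 CPM in the FLC-low AOP3-off block, and 2550 and 2250 against 4000 and 4180 CPM in the AOP3-expressing block. The last-set columns of the high-MAM1 block were the lowest of all 16. PSAD-1, a photosystem I subunit, fell by 1.62 ± 0.05 log2 in the high-MAM1 block and by 0.81 ± 0.05 to 0.88 ± 0.05 in the other 3. In the first set 24 of the 33 had both AOP3-expressing columns above all other blocks (12.1% of all loci tested), and in the last set 23 of the 33 had both GSL-OH-low columns above all others (9.9%). LHCB1.1, LHCB1.2 and LHCB1.3, and the RBCS genes, are near-identical copies whose single values are uncertain.

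Mitotic cell cycle genes fell in every block and farthest, by the median, in the high-MAM1 block. Of 23 members 13 (56.5%) were called by the F test, and 20, 21, 17 and 18 were called lower, with medians of -0.78, -1.18, -0.61 and -0.72 log2 units. CYCB1;1, a mitotic cyclin also known to be induced by DNA damage, went the other way. It had 32.8 and 33 CPM in the last set and 14.5 and 13.7 CPM in the first set of the high-MAM1 block and 26.9 and 24.3 against 14.9 and 11.9 CPM in the FLC-low AOP3-off block. It had 15 and 15.5 against 14.5 and 15.1 CPM in the GSL-OH-low block and 12.9 and 12 against 13.3 and 12 CPM in the AOP3-expressing block. The sets were apart in the first pair of these blocks and overlapped in the second pair. CYCA1;1 fell by 1.98 ± 0.15 log2 in the high-MAM1 block and by 0.87 ± 0.14 to 1.00 ± 0.13 in the other 3.

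Auxin, brassinosteroid and wall-loosening genes had 14 of 24 (58.3%) called by the F test and were called lower at 18, 17, 18 and 17 members and higher at 3 in each block, with medians of -1.34, -1.22, -1.11 and -0.93 log2 units. EXPA5, an expansin that loosens cell walls, had 8.13 and 9.39 CPM in the last set and 66.1 and 64.6 CPM in the first set of the high-MAM1 block, and 16.6 to 22.6 CPM in the last set and 58.1 to 65.8 CPM in the first set of the other 3. IAA2, an early auxin-response gene, rose by 1.73 ± 0.10 log2 in the high-MAM1 block and by 0.38 ± 0.10 to 0.73 ± 0.11 in the others.

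Aliphatic glucosinolate synthesis fell in the last set, least in the FLC-low AOP3-off block. Of 20 members 15 (75%) were called by the F test. Medians were -1.34, -1.53, -0.48 and -2.02 log2 units in the GSL-OH-low, high-MAM1, FLC-low AOP3-off and AOP3-expressing blocks, with 14, 16, 13 and 18 called lower. MAM1, AOP3 and GSL-OH are on this list and also formed the blocks. SOT17, a sulfotransferase of the last core step, had 80.8 and 80.6 CPM in the last set and 39.4 and 36.1 CPM in the first set of the FLC-low AOP3-off block, and 37.7 and 46.8 against 63.2 and 72.4 CPM in the AOP3-expressing block. The sets were apart in both and in opposite order, at 1.09 ± 0.10 and -0.66 ± 0.10 log2. SOT18, its close relative, fell by 2.01 ± 0.10 in the AOP3-expressing block and by 0.45 ± 0.09 in the FLC-low AOP3-off block. Of 7 breakdown genes 4 (57.1%) were called by the F test, and the AOP3-expressing block had the lowest median, -0.74, against 0.09, -0.02 and 0.06 in the GSL-OH-low, high-MAM1 and FLC-low AOP3-off blocks, of which the high-MAM1 value was 0.06 under median-of-ratios scaling. ESP, which is on this list and among its called loci, also helped form the blocks. NSP1, a nitrile specifier with close copies, was higher by 0.39 ± 0.14 and 0.45 ± 0.13 in the GSL-OH-low and FLC-low AOP3-off blocks and lower in the AOP3-expressing block (-0.96 ± 0.15).

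Among clock genes 7 of 11 (63.6%) were called by the F test, with small differences. TOC1, an evening clock component, had 177 and 192 CPM in the last set and 190 and 201 CPM in the first set of the AOP3-expressing block, where the sets overlapped, and was lower by 0.46 ± 0.06 to 0.64 ± 0.06 log2 in the other 3. Of 10 flowering-time loci 2 (20%) were called. SVP, a floral repressor, fell by 2.09 ± 0.09 log2 in the high-MAM1 block and by 0.80 ± 0.09 in the AOP3-expressing block. MAF2, a relative of FLC, was called (adjusted p = 0.0123, edgeR; 0.209 with DESeq2). Of 9 abscisic acid and cold loci 5 (55.6%) were called by the F test. The list did not move as a whole, with 3 members called higher in the last set of each block. In the GSL-OH-low, high-MAM1, FLC-low AOP3-off and AOP3-expressing blocks 4, 2, 5 and 3 were called lower. Medians were -1.61, -0.003 (0.07 under median-of-ratios scaling), -0.81 and 0.43 log2 units. NCED3 and ABI1, described next, were among the raised members. NCED3, which limits abscisic acid synthesis, had 49.6 and 56.6 CPM in the last set and 3.12 and 3.06 CPM in the first set of the high-MAM1 block, and 20.4 and 19.7 against 5.5 and 5.22 CPM in the AOP3-expressing block. ABI1, a phosphatase that brakes abscisic acid signalling, was raised by 1.61 ± 0.07 in the high-MAM1 block and by 0.72 ± 0.07 to 0.90 ± 0.07 in the others. Of 3 tested root markers, PYK10, a glucosidase of root bodies, was called by the F test. It had 52.1 and 53.2 CPM in the last set and 92.9 and 128 CPM in the first set of the AOP3-expressing block and 228 and 181 against 170 and 182 CPM in the GSL-OH-low block.

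**Figure D4:**
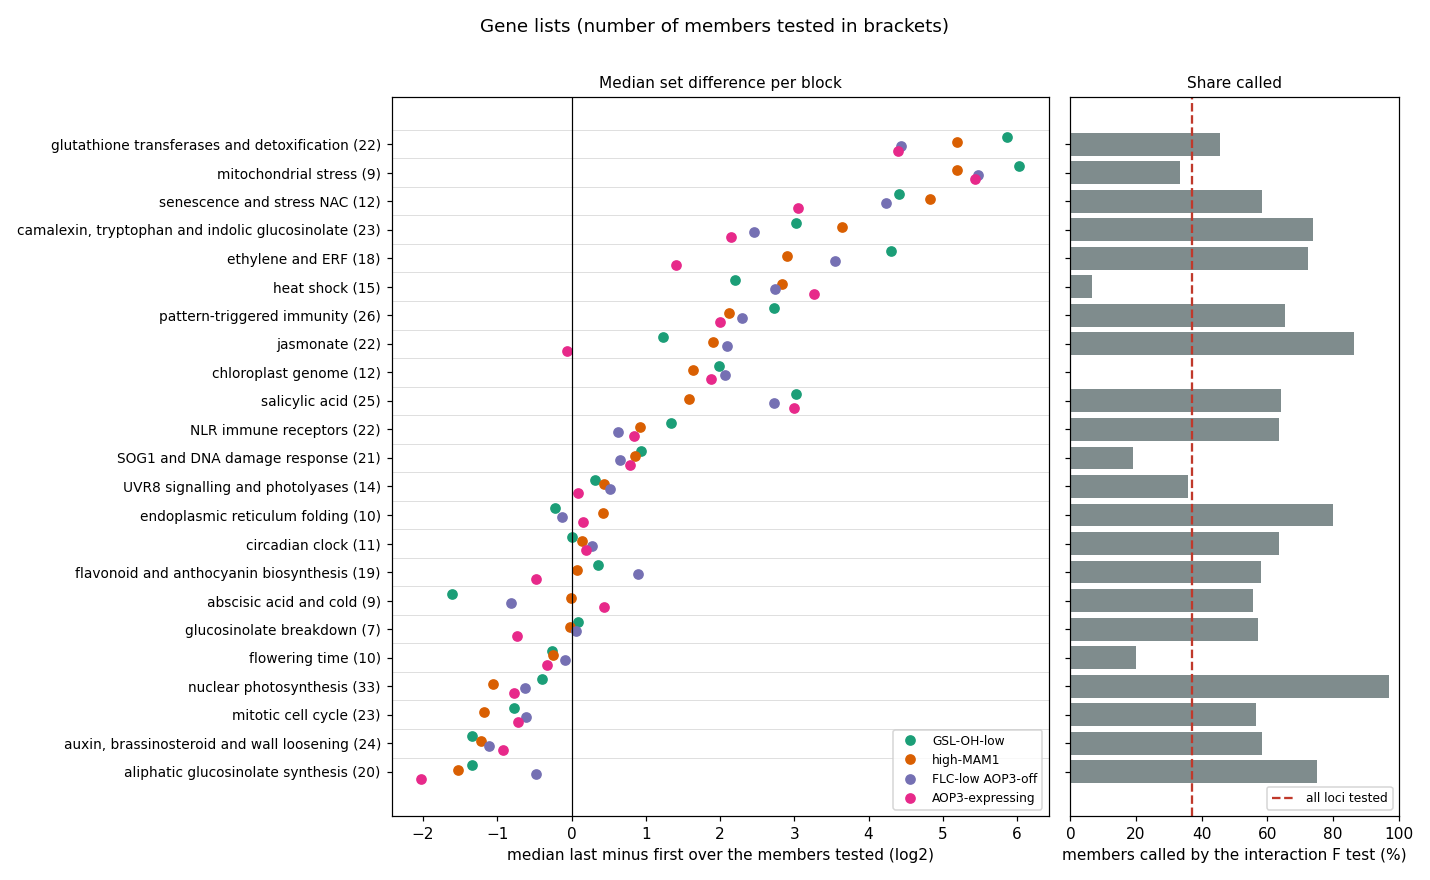
Median last-minus-first log2 difference of each gene list in each block (left, 1 point per block, number of members tested in brackets) and the share of members called by the F test in percent (right, dashed line at the 37.1% of all loci tested). Photosynthesis, cell cycle and aliphatic glucosinolate medians lie below 0 in every block, salicylic acid medians above 0 with the high-MAM1 block lowest, and the jasmonate and flavonoid lists have their lowest medians in the AOP3-expressing block.

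The loci with the largest departures in each block were mostly near the detection limit in 1 cell. In the GSL-OH-low block PP2-B14 had 76.7 and 69.2 CPM in the last set and 0 CPM in both first-set columns, at least 349-fold higher. Its levels in the other 3 blocks were 2.87 to 11.5 CPM in the last set and 0 to 0.275 CPM in the first. AT5G52930, a protein of unknown function in RefSeq, went the other way in the GSL-OH-low block. It had 0.638 and 1.2 CPM in the last set and 1.72 and 2.29 CPM in the first set there. Elsewhere it had 4.52 to 15.1 CPM in the last set and 0.631 to 1.93 CPM in the first. AT4G22960, also of unknown function, had 48.4 and 48.5 CPM in the last set and 0.156 and 0 CPM in the first set of the high-MAM1 block, a ratio of 785 with a counting interval of 141 to 31000. It had 32.2 and 24.8 against 3.3 and 3.78 CPM in the GSL-OH-low block.

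In the high-MAM1 block ACA2, an alpha carbonic anhydrase, had 35.4 and 22.3 CPM in the last set and 0.625 and 0.816 CPM in the first set. It had 1.38 to 4.54 CPM in the last set and 3.87 to 5.5 CPM in the first set of the other blocks, so the order of the sets was turned round in the GSL-OH-low and AOP3-expressing blocks. AT4G03450, an ankyrin repeat protein, had 156 and 154 CPM in the last set and 16.1 and 9.79 CPM in the first set of the high-MAM1 block (3.64 ± 0.17 log2), and 74.5 and 56.3 against 0 and 0 CPM in the FLC-low AOP3-off block, at least 301-fold higher. AT1G57650, an ATP-binding protein in RefSeq, had 1.7 and 1.79 CPM in the last set and 0.469 and 0.714 CPM in the first set of the high-MAM1 block, and 66 and 65.7 against 0.143 and 0.54 CPM in the GSL-OH-low block. In the last set it had 8.15 and 7.31 CPM in the FLC-low AOP3-off block and 43.3 and 38 CPM in the AOP3-expressing block, so the high-MAM1 pair was the lowest and the FLC-low AOP3-off pair the next.

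In the FLC-low AOP3-off block AT4G11170, a TIR-NBS-LRR receptor, had 28.1 and 26.5 CPM in the last set and 0 CPM in both first-set columns, at least 124-fold higher. WAK3, a wall-associated kinase, had 63.5 and 59.8 CPM in the last set and 6.88 and 8.24 CPM in the first set of that block (3.04 ± 0.13 log2), and 70.7 and 86.8 against 0.143 and 0.27 CPM in the GSL-OH-low block. Its first set was raised in the FLC-low AOP3-off and high-MAM1 blocks and near the limit in the other two. DIP2, a ubiquitin ligase, and CEN2, a centrin, were at 0 CPM in both first-set columns of the FLC-low AOP3-off block, and DIP2 missed the threshold with the replicate block (adjusted p = 0.0521) as CEN2 did with DESeq2 (adjusted p = 0.0544).

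In the AOP3-expressing block AT5G59670, a leucine-rich repeat kinase, had 35.8 and 32.9 CPM in the last set and 3.97 and 3.91 CPM in the first set (3.12 ± 0.39 log2). It had 55.6 and 62.4 against 140 and 158 CPM in the high-MAM1 block (-1.34 ± 0.21), and its sets overlapped in the GSL-OH-low block. MBP2, a myrosinase-binding protein, had 1.23 and 1.47 CPM in the last set and 10.5 and 19.8 CPM in the first set of the AOP3-expressing block, and 1.81 to 4.82 CPM in the last set and 0.54 to 2.38 CPM in the first set of the others. CRK12, a receptor-like kinase, had 6.76 and 5.47 CPM in the last set and 0 CPM in both first-set columns of that block, at least 32-fold higher. MSRB7, a methionine sulfoxide reductase, was called (adjusted p = 0.0445, edgeR; 0.0704 with the replicate block).

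The loci called in opposite directions with the largest smaller difference had the high-MAM1 block as the only one called lower in 3 of 6 cases. CAX3, a vacuolar calcium exchanger, had 13.6 and 8.84 CPM in the last set and 51.8 and 44 CPM in the first set of the high-MAM1 block (-2.05 ± 0.17 log2), and 4.15 and 2.99 against 1.15 and 0.54 CPM in the GSL-OH-low block (2.07 ± 0.48). AT5G10760, an aspartyl protease, had 141 and 186 against 624 and 680 CPM in the high-MAM1 block and 72.9 and 131 against 13.4 and 18.7 CPM in the AOP3-expressing block. BG3, a glucanase, had 36.8 and 42.6 against 123 and 126 CPM in the high-MAM1 block and 9.08 and 4.06 against 0.963 and 1.43 CPM in the FLC-low AOP3-off block. At these 3 loci the high-MAM1 first set was the highest of all cells. JAL23, a jacalin-type lectin, had 3.34 and 3.71 against 0.826 and 0.792 CPM in the FLC-low AOP3-off block and 2.25 and 2.84 against 7.48 and 14.6 CPM in the AOP3-expressing block.

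At 190 loci both sets of a block were under 1 CPM while another block reached 10 CPM. Of these 52 were called by the F test, a smaller share than the 37.1% of all loci tested. The loci named next were picked for the smallest F test p. AT5G54710, an ankyrin repeat protein, had 648 and 724 CPM in the last set and 168 and 157 CPM in the first set of the high-MAM1 block, and 0 and 0.316 CPM in the last set and 0 CPM in both first-set columns of the AOP3-expressing block. AT1G10340, of the same family, had 45 and 55.1 against 19.7 and 18.1 CPM in the high-MAM1 block and 0.307 and 0.421 against 0.0901 and 0 CPM in the AOP3-expressing block. Both were raised in the last set of the other 3 blocks and hardly detected in the AOP3-expressing block. Just inside the threshold of the F test lay AT5G53810 (adjusted p = 0.0499, edgeR) and AT3G26340 (0.05), and just outside it AT1G75140 and AT1G75210 (both 0.05 as rounded).

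Leaving out the high-MAM1 block left 2342 loci called by the F test over the other 3 blocks, and leaving out any other block left 5763 to 6052. Without it 7 of 25 salicylic acid, 9 of 26 pattern-triggered immunity, 25 of 33 photosynthesis, 15 of 22 jasmonate and 11 of 19 flavonoid loci were called. Over all 4 blocks these lists had 16, 17, 32, 19 and 11 called. Calls over all loci fell from 6671 to 2342 between these settings.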

How the data were processed

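Read counts per locus were used as deposited by the authors. Per the submitters' processing notes, TAIR9 and TAIR10 builds were used together with TopHat and FastQC. No source used here gives the counting program, the annotation or the strandedness. Loci reaching 1 CPM in 2 or more of the 16 columns entered the fit, made with edgeR 4.0.16 under R 4.3.3 (TMM, robust quasi-likelihood fit, 8 cell means of block by set, 8 residual degrees of freedom, Benjamini-Hochberg adjustment over all 17983 loci), and a call means an adjusted p under 0.05. Differences are last set minus first set. Values after ± are the absolute log2 difference divided by the square root of its F statistic, which can understate the error at low counts. The limit for a count of 0 was 3 counts. Total-count and median-of-ratios scaling, other filters, DESeq2 1.42.0, limma 3.58.1 (voom), thinning to equal depth, a replicate block and leaving out each column or block were tried, the list counts without a block being added after seeing the data. The procedure was tested on simulated data. Blocks and sets come from the counts and column numbers. The members, blocks and gene lists were chosen with earlier results of these data known. Named loci were, in order: the 3 largest called departures per block and direction, the 6 largest opposite calls, the 3 smallest F test p-values per list, 2 loci on either side of the threshold, 4 loci absent in a block and the 5 block loci. RefSeq TAIR10.1 gave names for 23847 of 24185 loci. The labels do not say that replicate numbers mark shared plants or days. A few items that the rule for named loci covers are not reported here.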

Additional observations from a re-analysis of the deposited data

Results flagged for a closer look

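The F test of the difference between blocks called 6671 loci, which is the selection itself. The departure of a block from the mean of the other 3 was called higher at 1436 and lower at 820 loci in the GSL-OH-low block, higher at 2045 and lower at 3750 in the high-MAM1 block, higher at 1094 and lower at 578 in the FLC-low AOP3-off block, and higher at 1094 and lower at 1268 in the AOP3-expressing block.

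The 6 loci named next were called in opposite directions in at least a pair of blocks with the largest sizes on both sides. The adjusted p of the F test (edgeR) was 2.43e-09 for CAX3, 0.000165 for AT5G10760, 4.36e-06 for JAL23 and 0.00169 for BG3. It was 0.00246 for AT3G26460, which RefSeq names a polyketide cyclase, higher in the GSL-OH-low block (1.61 ± 0.52 log2) and lower in the other 3. It was 0.0028 for CIPK17, a kinase that works with calcium sensors, higher in the high-MAM1 block (1.59 ± 0.49) and lower in the AOP3-expressing block (-2.15 ± 0.65). Each cell held 2 columns, too few to look for single columns that stand apart.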

How the results depend on the processing

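The count of loci called by the F test was 6520 with median-of-ratios scaling, 8268 with total counts, 6692 with limma voom, 4160 with DESeq2 (1395 loci without an adjusted p), 5142 after thinning, 2342 without the high-MAM1 block and 5202 to 6647 when any 1 column was left out. With the labelled replicate number as a replicate block it was 6421, and the labels do not say that the numbers pair columns. Of the named loci DESeq2 kept 91 of 96, losing CEN2, ATR, TSO2, AOX1A and MAF2, limma voom kept 95 of 97, losing HSP70-1 and AOX1A, and the replicate block kept 93 of 97, losing DIP2, MSRB7, HSP70-1 and AOX1A. The cause was not tested.

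In the order GSL-OH-low, high-MAM1, FLC-low AOP3-off and AOP3-expressing, departures called were 1279, 3646, 848 and 1489 with DESeq2, and 3791 in the AOP3-expressing block with total counts. With 1 column left out they ran from 1251 to 2257, 3985 to 5850, 847 to 1667 and 1316 to 2381. The lowest were 1251 without Ba-1 mock 2 and 1329 without Lip-0 mock 2 in the GSL-OH-low block, 847, 963 and 1017 without C24 UV 2, Got-7 mock 1 and T1080 mock 1 in the FLC-low AOP3-off block, and 1316 and 1550 without Got-7 mock 2 and T1080 UV 2 in the AOP3-expressing block.

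Median absolute log2 differences with 1 column left out ran from 0.480 to 0.494, 0.661 to 0.675, 0.426 to 0.459 and 0.455 to 0.478. In the GSL-OH-low block the median was 0.486 with total counts, 0.505 with no filter, 0.448 at 5 CPM, 0.455 over loci present in every block and 0.494 after thinning. In the high-MAM1 block it was 0.653 with median-of-ratios scaling and, for the first 4 of those settings, 0.680, 0.681, 0.642 and 0.636, and in the AOP3-expressing block 0.437 at 5 CPM and 0.439 over loci present in every block. The high-MAM1 block had the largest median under all of these.

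Correlations are given for GSL-OH-low with high-MAM1, FLC-low AOP3-off and AOP3-expressing, high-MAM1 with FLC-low AOP3-off and AOP3-expressing, and the last pair. They were 0.708, 0.741, 0.701, 0.688, 0.671 and 0.695 with no filter, 0.880, 0.927, 0.907, 0.864, 0.864 and 0.902 at 5 CPM, 0.889, 0.934, 0.920, 0.878, 0.876 and 0.915 over loci present in every block, and 0.822, 0.876, 0.840, 0.812, 0.793 and 0.840 after thinning. With 1 column left out they ran from 0.829 to 0.850, 0.875 to 0.899, 0.822 to 0.872, 0.814 to 0.837, 0.780 to 0.828 and 0.817 to 0.872. No correlation of this paragraph changed sign, but splits of calls and the medians of some gene lists near 0 did turn. With total counts the percentage of departures that were higher was 46.2 in place of 63.7 in the GSL-OH-low block and 80.0 in place of 46.3 in the AOP3-expressing block, and the jasmonate median of the AOP3-expressing block was 0.07 in place of -0.06. Splits of set differences turned as well. With median-of-ratios scaling 53.2% of high-MAM1 calls were higher, in place of 49.2%. Over loci present in every block 48.9% of GSL-OH-low calls were higher, in place of 52.4%. For the mean over blocks that setting gave 48.9%, in place of 50.8%. Depth limits loci near 0.219 to 0.613 CPM.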

Other observations

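The 6 columns outside the blocks, 3 in the last set and 3 in the first, entered no fit, and no complete block could be formed from them. Their set difference across loci had Pearson's r of 0.849, 0.839, 0.854 and 0.834 with the GSL-OH-low, high-MAM1, FLC-low AOP3-off and AOP3-expressing blocks, given as a description. All 3 last-set columns lay above all 3 first-set columns at 17 of 25 salicylic acid, 21 of 26 pattern-triggered immunity, 20 of 23 camalexin and indolic, 16 of 21 SOG1 and DNA damage and 9 of 9 mitochondrial stress loci, against 27.8% of all loci tested. They lay below at 28 of 33 nuclear photosynthesis and 20 of 23 mitotic cell cycle loci, against 25.4% of all loci tested. At jasmonate loci they lay above at 15 of 22 and below at 1, and at flavonoid loci above at 8 of 19 and below at 1. These columns show the set difference and not how it varied between blocks.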
